A study of Gallus gallus with 4 samples.

Results

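The genes described here are the integrin and laminin genes of the chicken, taken as every gene whose symbol in the deposited tables begins with ITGA, ITGB, LAMA, LAMB or LAMC and ends in digits or capital letters. The rule found 31 of 24356 genes. They comprise 10 integrin α chains, 7 integrin β chains, 9 laminin chains and 5 genes with names of the same pattern that are not integrin chains (ITGB1BP1, ITGB1BP2, ITGB1BP3, ITGB3BP and ITGBL1). Integrin and laminin chains with other symbols were not analysed here. The data come from wild-type chicken lung at embryonic day 13 (E13) and embryonic day 20 (E20), with 1 library per group. At E13, sorted lung cell populations mixed in similar amounts entered a multiome assay, in which RNA and open chromatin are read from each nucleus. At E20, cells sorted as epithelial gave 1 single-cell RNA library, called the epithelial library below. Lung cells from which CD45-positive immune cells had been removed gave the other, called the CD45neg library. The labels put nuclear RNA against E13 and the epithelial library and total RNA against the CD45neg library. They name no strain, treatment or number of embryos. Stage, assay and counting software changed together between E13 and E20, so their parts in a difference between stages cannot be told apart.

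Integrins are receptors made of an α and a β chain that span the cell membrane and tie the cytoskeleton to the matrix or to other cells. Laminins are secreted trimers of an α, a β and a γ chain that build the basement membrane under epithelium and around vessels and muscle, and integrins that pair with β1 are among their main receptors. In the mammalian lung, laminin α1 marks early development, laminin α5 lies beneath airway and alveolar epithelium and laminin α4 is typical of vessels and mesenchyme. Epithelial αVβ6 and αVβ8 are known in mammals for activating latent TGFβ, and α8β1 in the mesenchyme for binding nephronectin.

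Barcodes numbered 8705 at E13, 8341 in the epithelial library and 4567 in the CD45neg library, with totals of 53372394, 31800493 and 13997201 UMIs (unique RNA molecules counted). Filters kept 7038, 5186 and 2684 cells, with a median of 4222, 4471 and 3498 UMIs per cell. Cells were grouped in each library by clustering that left out the integrin, laminin and related genes, and groups were named by their markers. The E13 groups were EPCAM-marked epithelium with 3985 cells, of which 554 were KRT14-marked, KDR-marked endothelium with 146, COL1A2-marked fibroblasts with 1346, MYH11-marked smooth muscle with 72, pericyte-like cells with 285, PTPRC-marked immune cells with 449 and mesothelial-like cells with 93. The epithelial library held 1887 epithelial cells (36.4% of those kept), of which 247 were KRT14-marked, with 859 KDR-marked, 640 COL1A2-marked, 169 pericyte-like, 185 PTPRC-marked, 95 thrombocyte-like and 1192 erythroid-like cells. The CD45neg library held 90 epithelial, 645 KDR-marked and 668 COL1A2-marked cells, 685 erythroid-like cells and a mesenchymal cluster of 224 cells that no single marker list named. That cluster and the E20 pericyte-like cells were both led by POSTN and ADIPOQ. MYH11-marked cells numbered 32 and 11 in the E20 libraries, too few to be ranked. Within epithelium, KRT14-marked cells are called by that gene alone and are not called basal. KRT5, a basal cell keratin, stayed at or below 1.81 CPM in every E13 group. It was at 0 in every group of the epithelial library. TP63, another basal cell gene, stood at 14.997 CPM in KRT14-marked and 2.78 CPM in other epithelial cells at E13. In the epithelial library these levels were 10.7 CPM and 1.53 CPM. PTPRC-marked cells at E13 held more TP63, with 21.9 CPM. Mesothelial-like cells at E13 held more KRT14 (379 CPM) than the KRT14-marked cells (280 CPM).

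A level is given in CPM, which is a gene's UMI sum in a cell group scaled to 1e6, with an exact Poisson interval at the 95% level that covers counting error alone. With 1 library per group no difference could be tested, and no p-value was computed. Levels of marker genes outside their own cell groups give a background, whose source was not tested. EPCAM stood at 36.8 to 78.1 CPM outside epithelium at E13, against 317 CPM in it. Outside epithelium it stood at 10.8 to 23.7 CPM in the epithelial library and at 0 to 1.96 CPM in the CD45neg library. COL1A2 stood at 6.50 to 23.3 CPM in the E13 groups that are not mesenchymal or mesothelial-like. The E20 libraries shared 106 barcodes, against 5.61 expected by chance. Without them no count of members changed beyond the factor used for the alternatives below. Across libraries, 24 members reached 20 CPM in a group at E13, 22 in the epithelial library and 17 in the CD45neg library. The 5 that never did were ITGB1BP2, ITGB3BP, ITGB7, LAMB3 and LAMB4, whose highest levels were 1.41, 10.8, 1.47, 4.01 and 3.04 CPM.

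**Figure D1:**
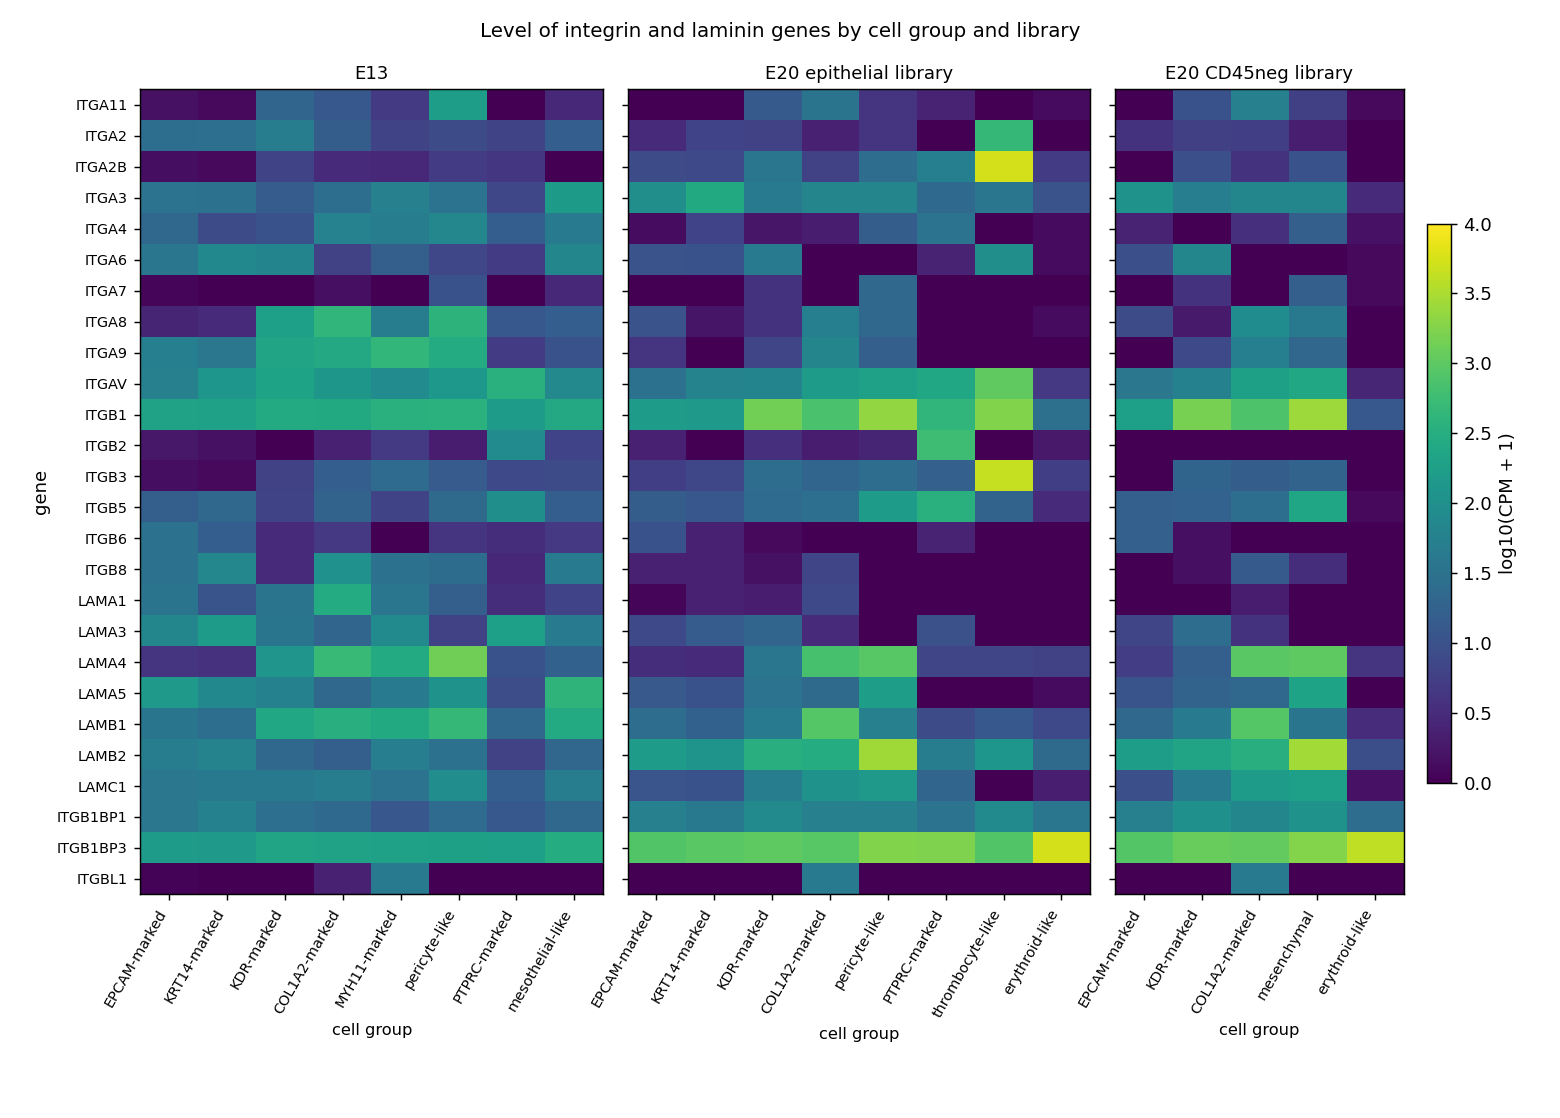
Level of the 26 genes that reached 20 CPM, as log10(CPM + 1), by cell group in each of the 3 RNA libraries. Columns are cell groups of at least 50 cells, and brighter cells are higher levels. ITGA2B and ITGB3 are brightest in thrombocyte-like cells, LAMB2 in the E20 pericyte-like and mesenchymal clusters, and LAMA4 in pericyte-like and COL1A2-marked cells.

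Many of the matrix chains and their receptors had 1 cell group that stood clear of the others. Among them were LAMA1, ITGA11 and ITGB2 at E13 and LAMB1, LAMB2 and ITGBL1 at E20. In some alternatives a MYH11-marked group was large enough to be ranked at E20. The lead of LAMB1 was then smaller, and that of ITGBL1 was lost in the epithelial library. A member was called for a group where it reached 20 CPM and stood at least 2-fold above every other ranked group, on log2 of CPM + 1. At E13, 11 of 24 members met this, against 22.7% of the 7324 genes tested the same way. In the epithelial library 16 of 22 members met it, against 32.6% of all genes. In the CD45neg library 10 of 17 members met it, against 26.6% of all genes. Erythroid-like cells were left out of this ranking. In the epithelial library the count was 10 of 20 (30.8% of all genes) where cells needed at least 1000 genes and 9 of 21 (27.7% of all genes) under a stricter mitochondrial limit. At E13 it was 5 of 22 where cells were grouped by marker UMIs instead of clusters, close to the 20.8% of all genes.

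Among the integrin α chains, the collagen receptor chain ITGA11 was highest in mesenchymal cells at both stages. At E13 it stood at 170 CPM (146 to 198) in pericyte-like cells, at 19.0 CPM in KDR-marked cells, at 11.9 CPM in COL1A2-marked cells and at 0.483 CPM in epithelium. At E20 the epithelial library had it at 33.8 CPM (27.6 to 41.0) in COL1A2-marked cells, with 12.6 CPM in KDR-marked and 3.10 CPM (0.375 to 11.2) in pericyte-like cells. COL1A2-marked cells of the CD45neg library held 54.0 CPM (45.8 to 63.3), KDR-marked cells 9.35 CPM and the mesenchymal cluster 4.68 CPM. The group with the highest level was thus named pericyte-like at E13 and COL1A2-marked at E20. Groups were named in each library alone, and whether the pericyte-like cells of both stages are the same cell type was not tested. Within the E20 COL1A2-marked cells the level was concentrated: ITGA11 reached 96.1 CPM in a cluster of 207 cells led by WIF1 and COL12A1, against 9.2 CPM in a cluster of 433 cells led by COL1A1 and APOA1. The COL12A1-led cluster of 191 cells in the CD45neg library held 87.2 CPM. Clusters of this kind also had ITGBL1 at 106.5 CPM and 119.4 CPM, with 22 CPM in the COL1A1-led cluster of the epithelial library. Where doublets were kept or the mitochondrial limit was stricter, cells were clustered and named anew. Clusters with contractile genes that took the name MYH11-marked then held at least 50 cells, among them cells not MYH11-marked in the main run. ITGA11 then stood lower in COL1A2-marked than in MYH11-marked cells by 1.04 (CD45neg library, doublets kept) and 2.08 (epithelial library, stricter limit) on the log2 scale.

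ITGA8, the α chain of the nephronectin receptor, was high in mesenchyme at E13. It stood at 422 CPM (403 to 442) in COL1A2-marked, 384 CPM (347 to 425) in pericyte-like, 178 CPM (157 to 202) in KDR-marked and 1.66 CPM (1.25 to 2.16) in epithelial cells. The epithelial library had ITGA8 at 51.5 CPM (43.8 to 60.2) in COL1A2-marked, 21.7 CPM in pericyte-like, 2.82 CPM in KDR-marked and 8.70 CPM (7.18 to 10.4) in epithelial cells. COL1A2-marked cells of the CD45neg library held 86.7 CPM, the mesenchymal cluster 41.0 CPM, KDR-marked cells 0.935 CPM and epithelium 7.20 CPM. COL1A2-marked cells had the highest level in each library, at E13 by less than the counting error over pericyte-like cells, and of the groups listed for both stages epithelium alone was higher at E20. ITGA9, whose β1 heterodimer binds tenascin C, was highest in MYH11-marked cells at E13 with 451 CPM (396 to 512), followed by 285 CPM in pericyte-like, 258 CPM in COL1A2-marked, 217 CPM in KDR-marked and 49.9 CPM in epithelial cells. At E20 it was highest in COL1A2-marked cells, with 64.0 CPM and 52.9 CPM in the epithelial and CD45neg libraries, and epithelium held 2.72 CPM and 0 CPM. Where clustering and naming anew gave a MYH11-marked group large enough to be ranked, the lead of COL1A2-marked cells was smaller or lost. It was -1.88 for ITGA8 and 0.005 for ITGA9 in the epithelial library (stricter mitochondrial limit), and -0.47 and 0.47 in the CD45neg library (doublets kept). ITGA4, which pairs with β1 to bind fibronectin and VCAM1, stood at 69.0 CPM in pericyte-like and 58.6 CPM in COL1A2-marked cells at E13. At E20 these groups lay below 20 CPM, and ITGA4 was highest in PTPRC-marked cells with 32.3 CPM (20.2 to 48.9). That lead was 1.16 on the log2 scale (0.04 to 2.51). It was 0.81 with doublets kept, 0.47 in cells with at least 1000 genes and 0.98 with a pseudocount of 5 CPM.

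The laminin receptor chains had other patterns. ITGA6 stood at 66.8 CPM (47.1 to 92.1) in mesothelial-like, 63.5 CPM (51.0 to 78.0) in KDR-marked and 41.2 CPM (39.0 to 43.4) in epithelial cells at E13, and the first pair of groups did not differ beyond counting error. At E20 KDR-marked cells held 44.6 CPM and 67.3 CPM in the epithelial and CD45neg libraries, epithelium held 9.53 CPM and 8.64 CPM, and COL1A2-marked cells held 0 UMIs in both. In the epithelial library thrombocyte-like cells led with 94.9 CPM (54.2 to 154) of ITGA6, by 1.07 on the log2 scale (0.25 to 1.83). That lead was 0.76 with doublets kept and 0.99 without a KDR-marked cluster led by POSTN. In the CD45neg library, where no thrombocyte-like group was ranked, ITGA6 was called for KDR-marked cells, by 2.83. ITGA3 was highest in mesothelial-like cells at E13 with 150 CPM (119 to 186), against 54.3 CPM in MYH11-marked cells and 32.6 CPM in epithelium. At E20 the highest ranked group was epithelium, with 113 CPM (108 to 119) in the epithelial library and 108 CPM (85.0 to 135) in the CD45neg library. ITGA7, a muscle and pericyte laminin receptor chain in mammals, reached 20 CPM in the pericyte-like cells of the epithelial library with 21.7 CPM (11.9 to 36.4), and the mesenchymal cluster of the other library held 15.2 CPM.

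ITGAV pairs with several β chains to bind matrix proteins with an RGD motif. At E13 it stood at 342 CPM (318 to 368) in PTPRC-marked cells, 205 CPM in KDR-marked, 137 CPM in pericyte-like and 132 CPM in COL1A2-marked cells, and epithelium was lowest with 62.1 CPM. In the epithelial library thrombocyte-like cells led with 1038 CPM (890 to 1204), ahead of PTPRC-marked cells with 251 CPM, and epithelium was lowest with 33.6 CPM. In the CD45neg library ITGAV was highest in the mesenchymal cluster with 246 CPM, followed by COL1A2-marked cells with 188 CPM. Epithelium was lowest there as well, with 37.5 CPM. ITGA2 and ITGA2B are the collagen receptor and fibrinogen receptor chains of mammalian platelets, and thrombocytes are the nucleated bird counterpart. ITGA2B stood at 5439 CPM (5092 to 5802) in thrombocyte-like cells and at 36.1 CPM in KDR-marked cells of the same library, and ITGA2 at 469 CPM (371 to 584) and 4.87 CPM. Neither was used to name or cluster those cells, which held 95 cells with a median of 1450 UMIs. At E13, ITGA2 was highest in KDR-marked cells with 48.0 CPM (37.2 to 60.8) and stood at 26.8 CPM (25.1 to 28.7) in epithelium.

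Among the β chains, ITGB1, the shared partner of most of these α chains, was found in every group. At E13 the groups lay between 155 CPM (139 to 173) in PTPRC-marked and 361 CPM (325 to 401) in pericyte-like cells. At E20 it ranged in the epithelial library from 158 CPM (151 to 165) in epithelium through 721 CPM in COL1A2-marked and 1416 CPM (1379 to 1454) in KDR-marked cells to 2209 CPM (2095 to 2326) in pericyte-like cells. The same order ran in the CD45neg library from 180 CPM (150 to 215) through 753 CPM and 1514 CPM to 2554 CPM (2448 to 2664) in the mesenchymal cluster. Epithelium was lowest among the ranked groups of both E20 libraries. ITGB2, the leukocyte integrin β chain, stood at 84.8 CPM (72.9 to 98.1) in PTPRC-marked cells at E13, where no other group passed 5.42 CPM. It stood at 577 CPM (521 to 636) in PTPRC-marked cells of the epithelial library and had 0 UMIs in every group of the CD45neg library, from which CD45-positive cells had been sorted out.

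ITGB5 was called for PTPRC-marked cells in both libraries that held them, with 96.9 CPM at E13 and 342 CPM (299 to 389) in the epithelial library. Its next E20 group was pericyte-like with 163 CPM (133 to 197), and in the CD45neg library the mesenchymal cluster led with 225 CPM (194 to 259), against 27.0 CPM in COL1A2-marked cells. The E20 lead over pericyte-like cells, 1.07 on the log2 scale, lay below 2-fold in 3 of 11 alternatives. ITGB6 was called for epithelium at E13 and was highest there at E20, though below 20 CPM. At E13 it stood at 29.4 CPM (27.6 to 31.3) in epithelium and at or below 3.61 CPM elsewhere. At E20 epithelium held 8.24 CPM (6.77 to 9.94) and 15.8 CPM (7.91 to 28.4) in the epithelial and CD45neg libraries, and no other ranked group passed 1.47 CPM. These leads were 1.91 (-0.02 to 7.81) and 3.52 (2.30 to 10.5) on the log2 scale, in the epithelial library not beyond counting error. ITGB8 was high in COL1A2-marked cells at E13 with 104 CPM (94.4 to 114), followed by 45.2 CPM in mesothelial-like and 36.5 CPM in epithelial cells. At E20 its highest level was 5.90 CPM and 12.8 CPM in COL1A2-marked cells of the epithelial and CD45neg libraries. ITGB3, the partner of ITGA2B and ITGAV, stood at 4496 CPM (4181 to 4827) in thrombocyte-like cells, while no ranked group of the other libraries passed 24.3 CPM.

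Each of the laminin α chains was called for a group at E13. LAMA1 stood at 284 CPM (269 to 300) in COL1A2-marked cells, 35.6 CPM in MYH11-marked, 33.1 CPM in KDR-marked and 30.7 CPM (28.8 to 32.6) in epithelial cells. At E20 its highest level was 6.56 CPM (4.01 to 10.1) in the epithelial library and 1.07 CPM (0.220 to 3.11) in the CD45neg library, both in COL1A2-marked cells. LAMA1 was thus low in every E20 group. LAMA4 stood at 1358 CPM (1286 to 1433) in pericyte-like cells at E13, 504 CPM in COL1A2-marked, 281 CPM in MYH11-marked, 123 CPM in KDR-marked and 2.93 CPM in epithelial cells. At E20 it stood at 906 CPM in pericyte-like and 693 CPM in COL1A2-marked cells of the epithelial library, and at 1034 CPM and 934 CPM in the mesenchymal cluster and COL1A2-marked cells of the CD45neg library. Epithelium stayed at or below 4.32 CPM, so LAMA4 was mesenchymal at both stages.

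LAMA5, the chain of the lung epithelial basement membrane in mammals, was highest in mesothelial-like cells at E13 with 405 CPM (353 to 461), followed by epithelium with 129 CPM (126 to 133) and pericyte-like cells with 110 CPM. At E20 pericyte-like cells of the epithelial library led with 170 CPM (140 to 205), and epithelium held 11.8 CPM (10.0 to 13.8). The mesenchymal cluster of the CD45neg library led with 205 CPM (176 to 237), and epithelium held 10.1 CPM. Between the stages the leading group moved from mesothelial-like and epithelial cells, the former not found at E20, to the POSTN-led clusters. LAMA3, an α chain of epithelial laminin in mammals, stood at 178 CPM (160 to 196) in PTPRC-marked cells at E13, 82.4 CPM in MYH11-marked, 78.2 CPM (75.2 to 81.2) in epithelial and 35.3 CPM in KDR-marked cells. At E20 KDR-marked cells led with 19.0 CPM and 26.2 CPM in the epithelial and CD45neg libraries. Within these, the cluster led by SEMA3G and GJA4, genes of arterial endothelium in mammals, held 51.7 CPM and 77.3 CPM of LAMA3, against 15.6 CPM and 21.0 CPM in the cluster led by PECAM1 and CDH5. The E13 lead of PTPRC-marked cells in LAMA3, 1.10 on the log2 scale, lay below 2-fold in 4 of 9 alternatives, with a lowest value of 0.66.

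LAMB1 and LAMB2, the alternative β chains of most laminins, had different leading groups at both stages. At E13, LAMB1 stood at 465 CPM (423 to 509) in pericyte-like, 320 CPM (304 to 337) in COL1A2-marked, 275 CPM in mesothelial-like, 271 CPM in MYH11-marked and 241 CPM (216 to 267) in KDR-marked cells, and at 33.9 CPM in epithelium. At E20 the epithelial library had LAMB1 at 881 CPM in COL1A2-marked, 54.2 CPM (37.8 to 75.4) in pericyte-like, 45.1 CPM in KDR-marked and 25.1 CPM in epithelial cells. The CD45neg library had LAMB1 at 881 CPM in COL1A2-marked cells, 35.1 CPM in the mesenchymal cluster, 41.6 CPM in KDR-marked and 21.6 CPM in epithelial cells. LAMB1 was therefore called for COL1A2-marked cells at E20, by 4.0 and 4.37 on the log2 scale. The unranked MYH11-marked cells held 497 CPM and 492 CPM. Where clustering and naming anew gave a MYH11-marked group large enough to be ranked, the lead of COL1A2-marked cells in LAMB1 was smaller. It was 0.26 (epithelial library, stricter mitochondrial limit) and 0.34 (CD45neg library, doublets kept).

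LAMB2 lies on chromosome 12, with annotated starts from 11948006 to 11959742. At E13 it stood at 50.6 CPM (48.2 to 53.1) in epithelial, 50.5 CPM in MYH11-marked, 30.4 CPM (20.5 to 43.4) in pericyte-like, 20.5 CPM in KDR-marked and 15.4 CPM in COL1A2-marked cells. The epithelial library had LAMB2 at 2665 CPM (2541 to 2794) in pericyte-like, 316 CPM in KDR-marked, 300 CPM in COL1A2-marked and 156 CPM (149 to 163) in epithelial cells. The CD45neg library had LAMB2 at 2808 CPM (2697 to 2923) in the mesenchymal cluster, 317 CPM in COL1A2-marked, 214 CPM in KDR-marked and 166 CPM in epithelial cells. Among the ranked mesenchymal groups, the POSTN-led clusters were thus highest in LAMB2 and COL1A2-marked cells in LAMB1. The γ chain LAMC1 varied less at E13, from 14.9 CPM in PTPRC-marked to 91.3 CPM (73.4 to 112) in pericyte-like cells. At E20 it was highest in pericyte-like cells with 144 CPM and in the mesenchymal cluster with 178 CPM, next to COL1A2-marked cells with 114 CPM and 158 CPM. Epithelium held 10.2 CPM and 8.64 CPM of LAMC1. The epithelial laminin β chain LAMB3 did not pass 4.01 CPM (1.47 to 8.73), a level reached in the KRT14-marked cells of the epithelial library. LAMB1 and LAMB4 overlap on chromosome 1, where the starts of LAMB4, 15096774 to 15105407, lie within those of LAMB1, 15050235 to 15165846, so counts could be split between them. Over all kept cells 23 UMIs were assigned to LAMB4.

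**Figure D2:**
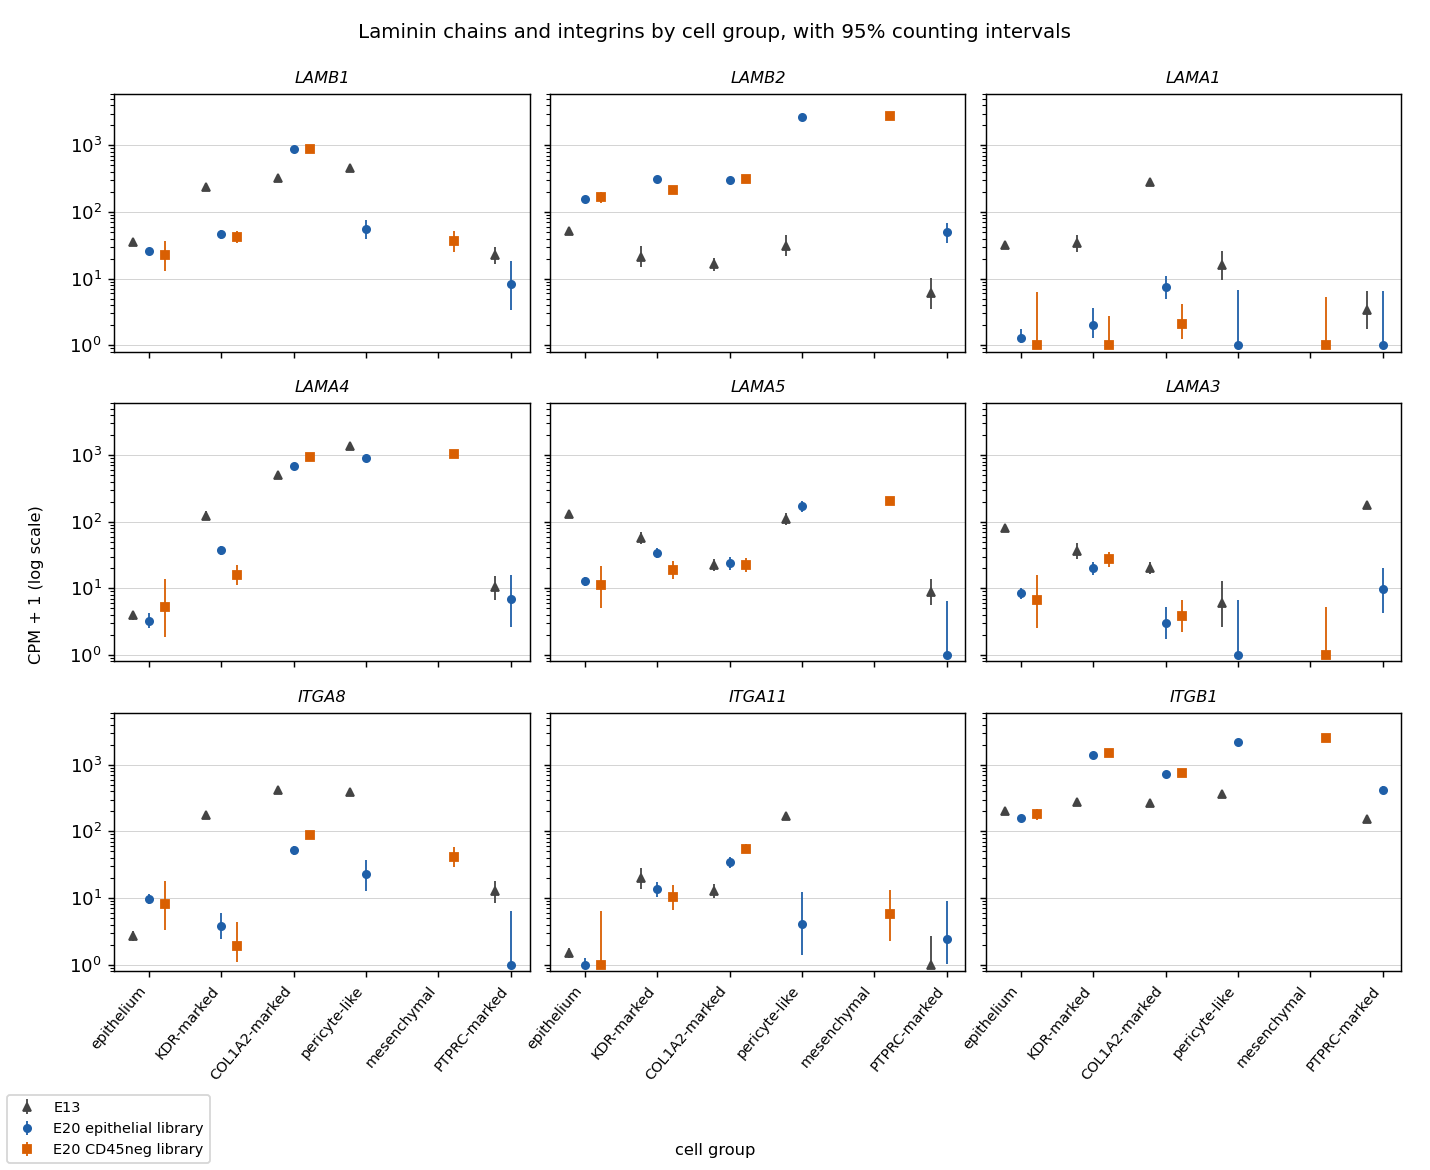
Level of 6 laminin chains and 3 integrin chains by cell group, as CPM + 1 on a log axis, with bars for the exact 95% Poisson interval. Triangles are E13, circles the epithelial library and squares the CD45neg library, each a single library. LAMB2 reaches 2665 and 2808 CPM in the E20 pericyte-like and mesenchymal clusters, where LAMB1 stands at 54.2 and 35.1 CPM.

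Set side by side, fewer of these chains reached 20 CPM in epithelium at E20 than at E13. Fewer genes of any kind did so as well. In KRT14-marked or other epithelial cells, 5336 genes reached it at E13 and 4586 in the epithelial library. Mitochondrial, ribosomal and haemoglobin genes are left out of these counts, and the CD45neg library had no such count. At E13, 5 of 10 α chains (ITGA2, ITGA3, ITGA6, ITGA9 and ITGAV), 3 of 7 β chains (ITGB1, ITGB6 and ITGB8), 3 of 4 laminin α chains (LAMA1, LAMA3 and LAMA5), LAMB1, LAMB2 and LAMC1 reached 20 CPM in epithelium. In each E20 library, epithelium had 2 α chains (ITGA3 and ITGAV), 1 β chain (ITGB1), no laminin α chain, LAMB1 and LAMB2 at that level. ITGA4 lay just below the threshold at E13, with an interval from 18.5 to 21.6 CPM. COL1A2-marked cells had 5 α and 2 β chains at that level in every library, with ITGA4 and ITGB8 at E13 and ITGA11 and ITGB5 in both E20 libraries among them. Of the laminins they had LAMA1, LAMA4, LAMA5, LAMB1 and LAMC1 at E13, and at E20 LAMB2 in place of LAMA1.

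The comparison of stages gave the following in each cell group. Ratios are log2 of CPM + 1 at E20 over E13, relative to the median of all tested genes of that group, which was -0.19 in epithelium, 1.11 in KDR-marked, 0.52 in mesenchymal and 1.23 in PTPRC-marked cells for the epithelial library. The medians for the CD45neg library were -0.18, 1.16 and 0.67 in the first 3. COL1A2-marked, MYH11-marked and pericyte-like clusters, with the mesenchymal cluster, were pooled here. Both E20 libraries were set against the same E13 counts, so their values are given side by side and not as separate evidence.

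In epithelium, 9 of 16 members were at least 2-fold lower in the epithelial library and 3 were higher, against 37.1% and 35.2% of all genes. In the CD45neg library 8 of 16 were lower and 3 higher, against 36.4% and 35.3%. The members' median ratio relative to all genes was -1.57 and -1.25. Lower were 5 of 8 integrin chains and 4 of 6 laminin chains in the epithelial library, and 4 of 8 and 4 of 6 in the CD45neg library. LAMA1 was lower by 4.41 on the log2 scale (30.7 to 0.302 CPM) in the epithelial library, and no UMI of it was counted in CD45neg epithelium, at least 7.10-fold lower against a floor of 3 counts. LAMA3 had ratios of -3.04 and -3.37, LAMA5 of -3.16 and -3.37 and LAMC1 of -1.60 and -1.83. ITGB8 had a ratio of -3.80, and in CD45neg epithelium, where it had no UMI, it was at least 8.44-fold lower against the floor. ITGA6 had ratios of -1.81 and -1.95. The fold of each stayed above 2 under every alternative run. ITGB6 was called lower in the epithelial library alone (-1.53), and its ratio was -0.83 under the stricter mitochondrial limit. With a minimum of 50 CPM, however, LAMA3 and LAMA5 alone were high enough to be called, and 2 of 8 members were lower in each E20 library, below the 40.2% and 39.8% of all genes.

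Against these, LAMB2 was higher in E20 epithelium, with ratios of 1.80 and 1.87, and ITGA3 with 1.96 and 1.88. ITGB1BP3, which despite its name is no integrin chain, had ratios of 2.62 and 2.64. ITGB1, ITGAV and LAMB1 lay within 2-fold, with ratios of -0.15 and 0.03, of -0.67 and -0.53 and of -0.23 and -0.44. Over all genes the ratio went with gene spacing, the mean distance to the neighbouring gene starts: Spearman's rho was -0.52 across 6124 genes in epithelium, a description across genes that are not independent. The members tested lay farther apart than most genes, with a median spacing of 47022 bp against 27141 bp, while LAMB2 had 1846 bp and ITGA3 10402 bp. Relative to the 100 tested genes nearest in spacing, LAMB2 had 0.05 and 0.13 and ITGA3 0.82 and 0.96 in epithelium, so neither call held. ITGA2 and ITGA9, lower by 2.87 and 3.58 in the epithelial library, had -0.86 and -0.54 on that reference. In the CD45neg library, where they rest on 2 and 0 UMIs, they had values no nearer to 0 than -1.02 and -2.56 under any alternative. The part of gene spacing in these differences was not tested further. Within E20 epithelium, LAMB2 stood at 381.6 CPM in a cluster led by EMP1 and at 83.8 CPM and 96.9 CPM in clusters led by surfactant and secretory genes, and ITGA3 at 183.3 CPM against 46.0 CPM and 103.4 CPM.

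In KDR-marked cells, 10 of 19 members were lower and 5 higher in the epithelial library, against 31.4% and 22.6% of all genes. In the CD45neg library 11 of 16 were lower and 3 higher, against 30.2% and 24.4%. The members' median was -1.61 and -2.18 relative to all genes. In these cells as well the ratio went with gene spacing over all genes, with a Spearman's rho of -0.49 and -0.50. The members tested had a median spacing of 39285 and 47022 bp, against 25527 and 25039 bp for all genes. The part of spacing was not tested further. ITGA8 had ratios of -6.67 and -7.70 (178 CPM at E13, 2.82 and 0.935 CPM at E20), and ITGA9 of -6.09 and -6.01 (217, 5.89 and 6.55 CPM). In the CD45neg library ITGA8 lay below the floor of 3 counts, 1.40 CPM, and its weakest ratio over the alternatives was -5.98. LAMB1 had -3.50 and -3.67 (241, 45.1 and 41.6 CPM), ITGAV -2.79 and -3.00 (205, 63.5 and 56.6 CPM) and ITGA2 -4.17 and -4.27. LAMA1 went from 33.1 CPM to 1.02 CPM, and to no UMI in CD45neg endothelium, at least 23.6-fold lower against the floor. The higher members were LAMB2, with ratios of 2.77 and 2.16 (20.5, 316 and 214 CPM), and ITGB1, with 1.22 and 1.27 (280, 1416 and 1514 CPM). LAMB2, ITGB1, ITGA8, ITGA9, LAMB1 and ITGAV kept their calls under every alternative, ITGB1 with a lowest value of 1.00. ITGA2 and LAMA1 kept their fold but lay below a minimum of 50 CPM. LAMA4, with -2.84 and -4.12, kept its calls as well. ITGA6 had -1.61 and -1.08 (63.5, 44.6 and 67.3 CPM), so in the CD45neg library it was lower only relative to the median. There its fold fell under 2 in 6 of 11 alternatives, and that of LAMC1 (-1.01) in 7 of 11. LAMA3 had -1.97 and -1.58, under 2-fold in 2 of 12 and 3 of 11 alternatives. Relative to genes of similar spacing LAMA3 had -0.69 and -0.36. LAMA5 had -1.88 and -2.78, under 2-fold in 2 of 12 alternatives in the epithelial library alone. Among these was the reference of similar spacing, with -0.77. ITGB1BP3 had 1.08 and 1.24, and 0.24 and 0.32 relative to genes of similar spacing.

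ITGA2B and ITGB3 were also called higher in KDR-marked cells of the epithelial library, with ratios of 1.37 and 1.05, but both depended on a cluster of 53 cells led by POSTN and ADIPOQ beside the endothelial gene CDH5. That cluster held ITGA2B at 267 CPM and ITGB3 at 158 CPM, with the thrombocyte markers TUBB1 at 105 CPM and GP9 at 29.3 CPM and with COL1A2 at 117 CPM. The largest KDR-marked cluster held ITGA2B at 14.9 CPM, TUBB1 at 20.1 CPM and GP9 at 1.95 CPM. Without the 53 cells the ratios were 0.06 for ITGA2B and 0.11 for ITGB3. The same cells carried both differences found between the E20 libraries, where 2 of 15 members were higher in KDR-marked cells of the epithelial library (ITGA2B by 2.07 and LAMA4 by 1.32) against 1.31% of all genes, and 0 were lower against 0.302%. Without them the values were 0.76 and -0.09. In epithelium 0 of 7 members were more than 2-fold higher and 0 lower between the E20 libraries, against 0.96% and 0.754% of all genes. In the mesenchymal pool 0 of 16 were higher and 0 lower, against 2.02% and 0.463%.

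In the mesenchymal pool members lay on both sides. In the epithelial library 4 of 20 were higher and 6 lower, against 27.2% and 33.7% of all genes, and in the CD45neg library 6 of 19 were higher and 6 lower, against 26.0% and 32.4%. The members' median was -0.10 and 0.04. LAMB2 was higher by 4.48 and 4.65 (21.0 CPM at E13, 704 and 880 CPM at E20), with a lowest value of 3.38 over the alternatives. LAMA1 was lower, with ratios of -5.67 and -7.60 (218, 5.15 and 0.8 CPM). In the CD45neg library LAMA1 lay at the floor of 3 counts, and its weakest ratio over the alternatives was -5.86. ITGB8 had -4.43 and -3.61 (84.2, 4.63 and 10.1 CPM), ITGA4 -4.15 and -3.93 (59.4, 3.86 and 5.33 CPM), ITGA8 -3.56 and -2.99 (383, 45.6 and 76.0 CPM) and LAMA3 -3.74 and -3.59. ITGA9 had -2.84 and -3.29, and -0.50 and -0.72 relative to genes of similar spacing. ITGB1 had ratios of 1.28 and 1.37, and ITGBL1, a secreted protein related to β chains, 2.19 and 1.96. LAMA4 (-0.34 and -0.08), LAMA5 (-0.19 and 0.04), LAMB1 (0.58 and 0.33) and LAMC1 (0.60 and 0.87) lay within 2-fold. For LAMB1 the pool joins groups that went apart. COL1A2-marked cells held 320 CPM at E13 and 881 CPM in each E20 library. Cells named pericyte-like held 465 CPM at E13 and 54.2 CPM in the epithelial library.

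In PTPRC-marked cells, which 1 library held at each stage, 4 of 12 members were higher and 3 lower, against 22.2% and 30.9% of all genes, and their median was 0.34. ITGB2 had a ratio of 1.52 (84.8 to 577 CPM), with a range over the alternatives from 1.12 to 2.75. LAMA3 had -5.42 (178 to 8.80 CPM), LAMB1 -2.66 (21.4 to 7.34 CPM) and ITGAV -1.68 (342 to 251 CPM). For ITGAV the ratio was -0.45 without subtracting the median. LAMB2 had 1.78, and 0.43 where doublets were kept. ITGA2B had 2.39, and -0.20 in cells with at least 1000 genes. The E20 sort was for epithelium, so these are 185 immune cells that remained. The 95 thrombocyte-like cells of that library, named apart, held 492 CPM of PTPRC, against 288 CPM in the PTPRC-marked group.

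**Figure D3:**
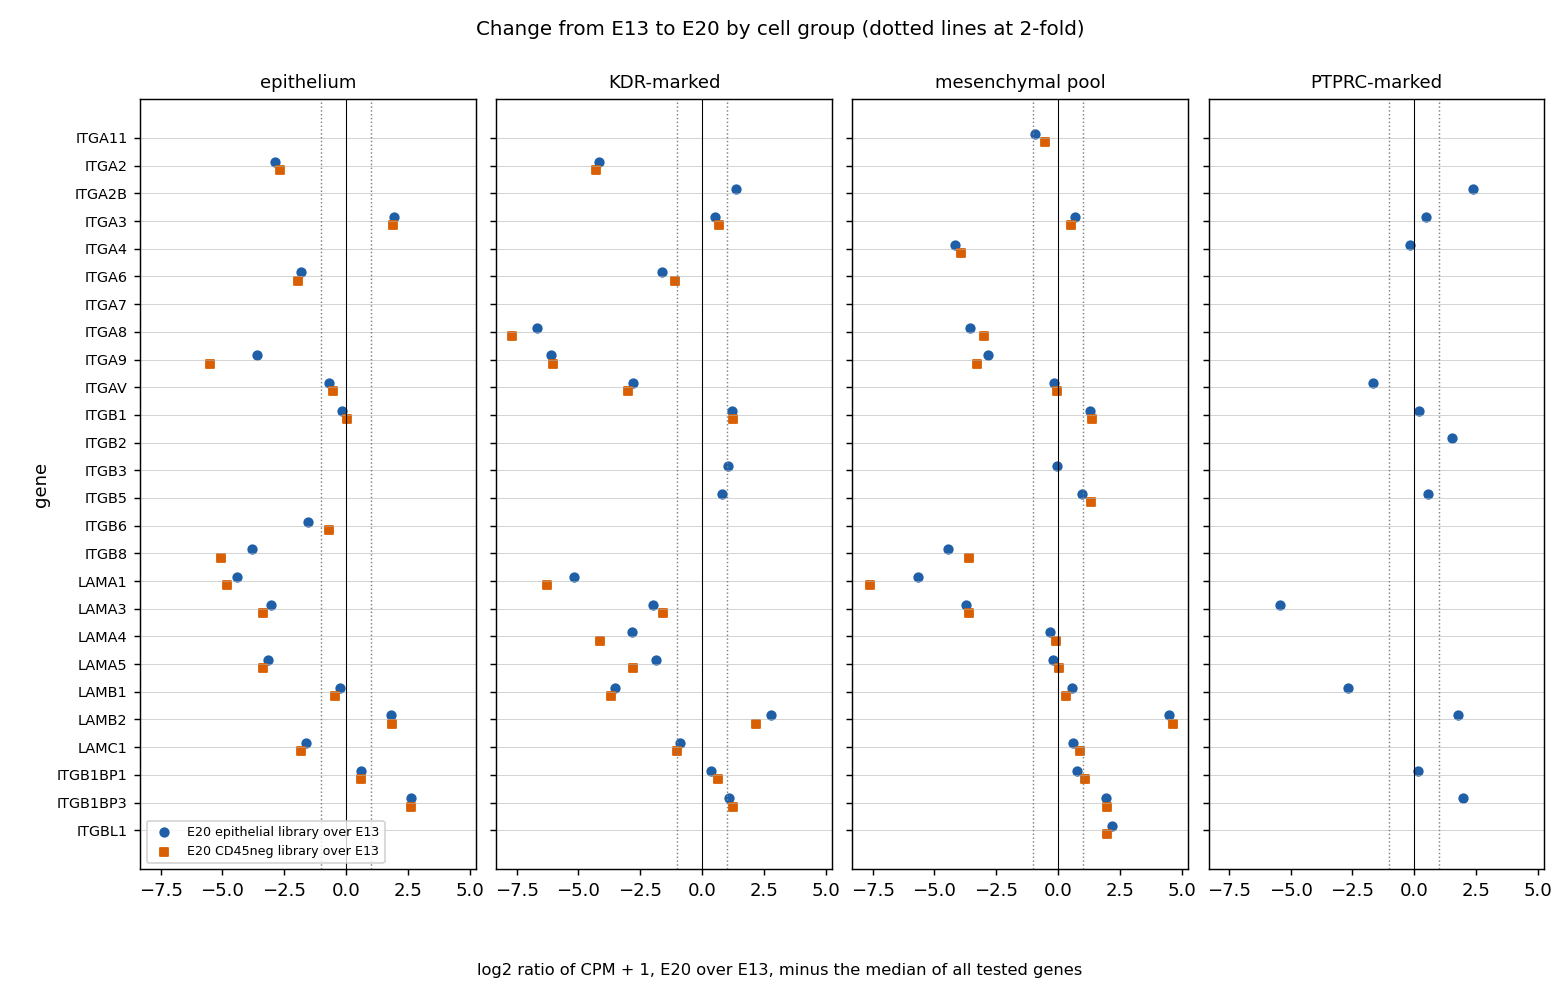
Ratio of E20 to E13 for each tested gene in 4 cell groups, as log2 of CPM + 1 relative to the median of all tested genes of that group. Circles are the E20 epithelial library and squares the CD45neg library, and dotted lines mark 2-fold. LAMA1, LAMA3, ITGA8, ITGA9 and ITGB8 lie to the left wherever they were tested, and LAMB2 to the right.

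The genes that work beside integrins and laminins are counted against the same 35.2% higher and 37.1% lower among all genes. Of these, the basement membrane partners had 1 of 5 tested genes higher and 1 lower in epithelium of the epithelial library, with a list median of 0.01 relative to all genes. COL4A1, a type IV collagen chain, stood at 69.9 CPM at E13 and 190 CPM at E20 (ratio 1.62), and FREM2, an epithelial basement membrane protein, at 187 and 6.96 CPM (-4.37). HSPG2 and COL4A2 lay within 2-fold with 0.57 and -0.74. Of other laminin receptors and hemidesmosome genes, 3 of 6 were higher and 2 lower, with a median of 1.36. DAG1, the dystroglycan gene, stood at 71.7 and 242 CPM (1.93) and CD151, a tetraspanin partner of laminin-binding integrins, at 14.3 and 66.8 CPM (2.34). The hemidesmosome genes COL17A1 and DST had -4.01 and -2.14. Of other integrin ligands, 2 of 7 were higher and 5 lower, with a median of -1.27. The nephronectin gene NPNT stood at 143 and 29.6 CPM (-2.04), TGFB2 at 42.0 and 2.72 CPM (-3.34), ADAM9 at 23.4 and 50.1 CPM (1.25) and TNC, tenascin C, at 71.1 and 184 CPM (1.55). Of integrin adaptors, 1 of 14 was higher and 6 lower, with a median of -0.70. The focal adhesion kinase gene PTK2 had -4.86, the vinculin gene VCL -3.83, FERMT2 0.95 and ILK, integrin-linked kinase, 1.99. That adaptor list also contains ITGB1BP1 and ITGBL1. Spearman's rho of the ratio with gene spacing was -0.64 over the 14 adaptors and -0.29 over the 7 other ligands. Over the 6 other receptor and hemidesmosome genes it was -0.03. The reference of genes of similar spacing was computed for the members alone, so the part of spacing in these lists was not tested.

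KRT14-marked cells were set against the other epithelial cells of the same library. At E13, 3 of 18 members were at least 2-fold higher and 4 lower, against 7.25% and 2.44% of all genes. ITGAV stood at 125 CPM (115 to 137) in KRT14-marked and 53.5 CPM (50.8 to 56.2) in other epithelial cells, and LAMA3 at 157 CPM (145 to 170) and 67.3 CPM (64.4 to 70.4), with ratios of 1.13 and 1.12 that held under every alternative. ITGB8 stood at 71.2 and 31.7 CPM, a ratio of 1.06. It was carried by a cluster of 64 cells with cilia genes, which held 223.9 CPM of ITGB8 and 158.6 CPM of ITGA6, against 47.6 and 60.3 CPM in the other KRT14-marked cluster of 490 cells. Without the cluster of 64 cells the ITGB8 ratio was 0.51. The lower members were LAMA1 (9.75 against 33.6 CPM, ratio -1.77), ITGA4 (7.50 against 21.7 CPM, -1.50), ITGB6 (14.5 against 31.5 CPM, -1.15) and LAMA5 (71.5 against 137 CPM, -1.02). None of these 4 held where cells were grouped by marker UMIs, with ratios of -0.24, -0.03, 0.21 and -0.48. In the epithelial library 1 of 7 members was higher, against 3.31% of all genes, and 0 were lower, against 4.08%. It was ITGA3, with 267 CPM (242 to 295) in KRT14-marked and 93.7 CPM (88.2 to 99.4) in other epithelial cells and a ratio of 1.21, which was 0.98 where doublets were kept and 0.84 under grouping by marker UMIs.

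The E13 chromatin data assign 273 of 87491 peaks to the genes described here, 33 typed as promoter and 240 as distal by the authors. Of the 31 genes, 30 have a peak and 26 a promoter peak, and 121 of the peaks are assigned to more than 1 gene. ITGBL1 has no peak, and ITGA11, ITGB1BP2, ITGB7 and LAMA5 have distal peaks without a promoter peak. Levels are peak counts per 1e6 peak counts of a cell group, from 33264490 counts in epithelium down to 332225 in MYH11-marked cells. For 9 of 21 members with enough RNA and promoter counts, the cell group highest in RNA was also highest in promoter peak counts, against 21.3% of all genes. These were ITGA3 and ITGA6 in mesothelial-like cells, ITGAV, ITGB2 and ITGB5 in PTPRC-marked cells, ITGB6 in epithelium, and LAMA4, LAMB1 and LAMC1 in pericyte-like cells. Near ties are among them: the ITGA6 promoter had 47.8 per 1e6 in mesothelial-like, 46.9 in KDR-marked and 45.1 in epithelial cells, and the LAMC1 promoter 54.4 in pericyte-like and 52.0 in PTPRC-marked cells. Counting error was not computed for promoter peaks. The ITGB6 promoter peak at chr7:21792081-21792938 had 24.1 per 1e6 in epithelium and at most 4.4 elsewhere. The ITGB2 promoter had 22.1 in PTPRC-marked cells and at most 9.6 elsewhere, and the LAMA4 promoter 19.9 in pericyte-like cells, 12.3 in COL1A2-marked and 2.0 in epithelium.

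Promoter and RNA went apart for other members. The 3 promoter peaks of LAMA3 together had 55.6 per 1e6 in epithelium and 27.1 in PTPRC-marked cells, which led in LAMA3 RNA. The LAMB3 promoter peak at chr26:3135992-3136900 had 41.2 in epithelium and at most 9.0 in other groups, while LAMB3 RNA stood at 2.05 CPM (1.59 to 2.60) in E13 epithelium. LAMA1, highest in COL1A2-marked RNA, had promoter levels of 17.7 there and 11.4 in epithelium, with MYH11-marked cells highest at 21.1 from few counts.

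Distal peaks of 1 gene were open in different groups. Near ITGB1, peaks at chr2:13985261-13986177, 71709 bp from the gene, and at chr2:14034899-14035816 had 82.4 and 80.6 per 1e6 in KDR-marked cells, with at most 12 and 18.1 in other groups. A peak of ITGB1 at chr2:14072735-14073611 had 117 in MYH11-marked cells and 31.5 in PTPRC-marked cells. For ITGA8, the peak at chr2:20370329-20371223 had 68.0 in KDR-marked cells and the peak at chr2:20415700-20416625 had 41.4 in mesothelial-like cells. For ITGA6, the peak at chr7:17768808-17769719 had 52.9 in KDR-marked cells, the group with 63.5 CPM of its RNA. LAMA5, without a promoter peak, had a distal peak at chr20:7901716-7902448 with 29.5 in KDR-marked cells. Levels of these ITGA8, ITGA6 and LAMA5 peaks in other groups are not given here, so they are not called particular to a group. Of the 240 distal peaks, 61 were highest in epithelium, 41 in MYH11-marked, 38 in pericyte-like, 33 in mesothelial-like, 30 in COL1A2-marked, 24 in KDR-marked and 13 in PTPRC-marked cells. The same split over all distal peaks was not computed, so these counts are not read as a trait of the members. Group totals run from 33264490 counts in epithelium down to 332225 in MYH11-marked cells, so a small group can be highest from few counts. Positions are those of the deposited peak list, counted from 1, and the submitters' processing notes name the galGal6 build.

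**Figure D4:**
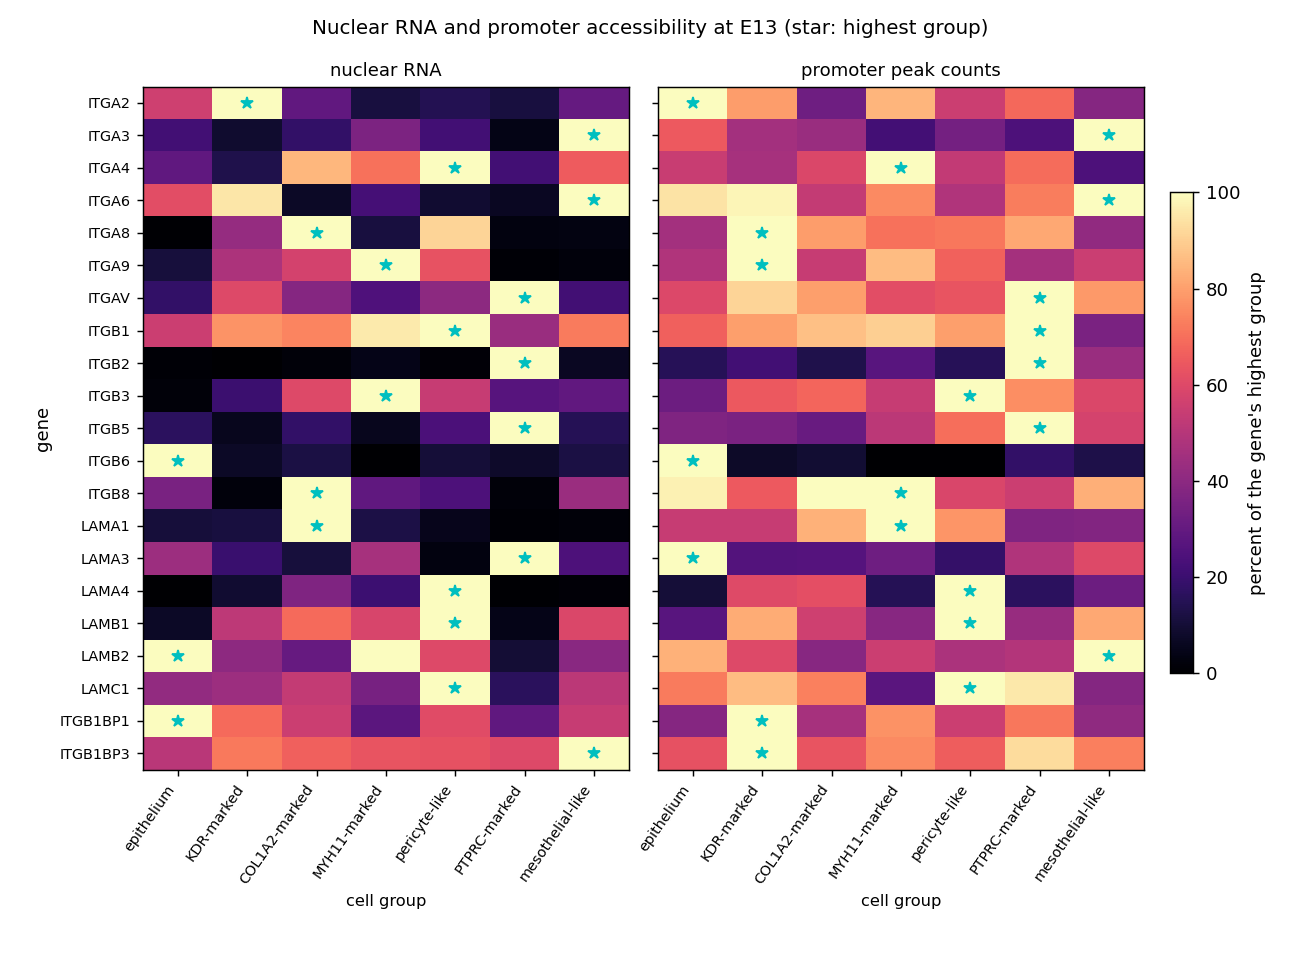
Nuclear RNA (left) and promoter peak counts (right) at E13 for 21 genes in 7 cell groups, each as percent of the gene's highest group, with a star on that group. The stars coincide for 9 genes, among them ITGB2, ITGB6 and LAMA4, and differ for LAMA3, whose RNA star is on PTPRC-marked cells and promoter star on epithelium.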

How the data were processed

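The authors deposited unnormalised UMI counts of genes by barcode and, at E13, counts of chromatin peaks. Per the file headers, they were made with cellranger-arc 2.0.0 (E13) and cellranger 4.0.0 (E20). The submitters' processing notes name galGal6, Cell Ranger, Seurat and Signac without roles. The annotation, intron counting and barcode choice are not given in the sources used here. The deposited peak list gives peak positions, a signed distance score in bp to a gene and a peak type, per the file headers.

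Barcodes with at least 500 genes were kept, and at E20 with at most 20% mitochondrial UMIs. No such limit was set at E13, where the median was 42.5%, against 7.40% and 3.61% in the epithelial and CD45neg libraries. The highest doublet scores were removed at 0.8% per 1000 cells (448, 235 and 60 cells). Each library was clustered alone with scanpy 1.11.5 (2000 variable genes without the members and related lists, 30 components, 15 neighbours, Leiden resolution 1). Clusters were named from 119 detected markers. At least 3 markers had to reach 20 CPM, and 662, 127 and 361 cells stayed unnamed. Counts were summed per group, and ratios used CPM + 1. Groups needed 50 cells, tested genes 20 CPM in the higher group and calls 2-fold. The script was tested on simulated data. The members, gene lists and comparisons were chosen with earlier results of these data known. The naming thresholds and 4 alternatives were chosen after seeing the data. All members are named, and of each pathway list the 2 highest and 2 lowest by ratio in epithelium.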

Additional observations from a re-analysis of the deposited data

How the results depend on the processing

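No paired analysis was possible because each group has 1 library. Of 128 calls of single members, 57 held under every alternative run. In 47 the fold fell under 2 in at least 1 alternative, and in 24 the fold held but the level lay under the minimum of at least 1, for 23 of them the 50 CPM minimum alone. Counts of called members that moved are given as called of tested, with the percent of all genes called in brackets. Moved here means a change beyond a set factor, so a count that is not listed may have changed by less. Except where a smaller or larger set of tested genes or cells follows from the setting itself, the cause was not tested. With doublets kept, the higher members at E20 were 3 of 17 (24.1%) in KDR-marked cells of the epithelial library and 5 of 18 (24.9%) in those of the CD45neg library, and the lower ones in PTPRC-marked cells 5 of 14 (32.6%). Between the E20 libraries 0 of 15 (1.27%) were higher and 1 (0.301%) lower in KDR-marked cells and 2 of 17 (2.71%) higher in mesenchymal cells, and 0 of 7 (3.49%) were higher in E20 KRT14-marked cells. ITGA2B between the libraries was then -0.72, and the lead of COL1A2-marked cells in the CD45neg library -1.04 for ITGA11 and -0.47 for ITGA8. With at least 1000 genes per cell, 10 of 20 (30.8%) were called for a group in the epithelial library, 3 of 18 (23.6%) were higher in KDR-marked cells, 5 of 13 (32.4%) lower in PTPRC-marked cells, 0 of 12 (0.639%) higher between the libraries in KDR-marked cells, 1 of 17 (1.66%) lower in E13 KRT14-marked cells and 2 of 8 (2.77%) higher in E20 ones. ITGB3 in KDR-marked cells was then -0.25, ITGA2B in PTPRC-marked cells -0.20 and LAMA4 between the libraries -0.14.

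With mitochondrial limits of 10% at E20 and 40% at E13, 9 of 21 (27.7%) were called for a group in the epithelial library, 5 of 16 (35.0%) were lower in PTPRC-marked cells and 1 of 15 (0.649%) was higher between the libraries in KDR-marked cells. LAMA4 there was -0.77, and the lead of COL1A2-marked cells -2.08 for ITGA11, -1.88 for ITGA8 and -3.09 for ITGBL1. A MYH11-marked group of 91 cells was then ranked in that library, and one of 71 cells in the CD45neg library with doublets kept. Both hold cells that were not MYH11-marked in the main run. Totals without mitochondrial, ribosomal and haemoglobin genes gave 5 of 16 (33.3%) lower in PTPRC-marked cells. A minimum of 50 CPM gave 2 of 8 lower in epithelium of each E20 library (40.2% and 39.8%), 2 of 11 (22.4%) higher in KDR-marked cells of the epithelial library, 7 of 12 (30.7%) lower in those of the CD45neg library, 0 of 7 (0.952%) higher between the libraries in KDR-marked cells and 1 of 10 (3.24%) lower in E13 KRT14-marked cells.

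No minimum level, which admits members with few counts, gave 18 of 30 (26.9%) called for a group in the CD45neg library. In the epithelial library 6 of 31 (16.0%) were then higher in epithelium and 10 of 28 (26.1%) in KDR-marked cells, 10 of 31 higher (26.0%) and 10 lower (19.2%) in mesenchymal cells, and 11 of 29 higher (32.2%) and 9 lower (26.4%) in PTPRC-marked cells. In the CD45neg library 5 of 31 (17.9%) were higher in epithelium, 8 of 28 (26.0%) higher in KDR-marked and 11 of 30 (18.5%) lower in mesenchymal cells. Between the libraries 5 of 27 were higher (5.58%) and 1 lower (5.87%) in epithelium, 5 of 28 (4.76%) higher in KDR-marked and 3 of 28 (3.35%) in mesenchymal cells. In E20 KRT14-marked cells 4 of 27 were higher (4.38%) and 4 lower (4.77%). A pseudocount of 5 CPM gave 3 of 19 (18.3%) higher in KDR-marked cells and 2 of 18 (1.91%) lower in E13 KRT14-marked cells. Grouping by marker UMIs gave 5 of 22 (20.8%) called for a group at E13, 7 of 15 (22.3%) higher in PTPRC-marked cells, 0 of 16 (0.587%) lower in E13 KRT14-marked cells, with ITGB6 at 0.21, and 0 of 7 (2.29%) higher in E20 ones. Without subtracting the median, 8 of 19 (52.6%), 9 of 20 (39.5%) and 9 of 12 (55.3%) were higher in KDR-marked, mesenchymal and PTPRC-marked cells of the epithelial library and 5 of 16 (53.9%) in KDR-marked cells of the CD45neg library, where ITGA6 was 0.084 and LAMC1 0.16. Relative to genes of similar spacing, 7 of 20 were higher in the mesenchymal pool of the epithelial library, a reference computed for the members alone. Without the POSTN-led cluster, 3 of 17 (22.7%) were higher in KDR-marked cells and 0 of 12 (0.639%) between the libraries, with LAMA4 at -0.0889. In groups of few cells depth limits what can be seen: a gene with 0 UMIs may reach 4.32 CPM in epithelium of the CD45neg library.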

Other observations

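ITGB1BP3 was highest in erythroid-like cells, which were not ranked. It stood at 5545 CPM (5465 to 5626) in the epithelial library and 4090 CPM (4024 to 4157) in the CD45neg library, against 830.3 to 1798 CPM in the ranked groups of both libraries. At E13 its levels lay between 139 CPM in KRT14-marked and 302 CPM in mesothelial-like cells. These values belong to no comparison above.

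ITGBL1 had different leading groups at the 2 stages among the ranked cells. At E13 it stood at 41.2 CPM (25.8 to 62.4) in MYH11-marked cells and 1.34 CPM in COL1A2-marked cells. At E20 it stood at 45.9 CPM (38.6 to 54.2) and 45.5 CPM (37.9 to 54.1) in COL1A2-marked cells of the epithelial and CD45neg libraries, with 0 UMIs in the 32 and 11 MYH11-marked cells, which allows up to 15.7 and 36.9 CPM at 3 counts. This order depended on how clusters were named. The lead of COL1A2-marked cells in ITGBL1 in the epithelial library was -3.09 under the stricter mitochondrial limit and 0.72 with doublets kept, against 5.55. Cells were clustered and named anew in these settings. The larger MYH11-marked group under the stricter limit holds cells that were not MYH11-marked in the main run. Which cells changed name was not examined.

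Among E13 fibroblasts, ITGB3 stood at 41.6 CPM in a COL1A2-marked cluster of 267 cells led by POSTN and COL1A1, against 4.6 and 7.8 CPM in the others. ITGA8 had the opposite order, with 132.5 CPM in that cluster and 578.1 and 442.1 CPM in the others.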
